A study of Mus musculus with 4 samples.

Results

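This section describes 10 genes of the canonical and non-canonical NF-κB pathways in leukocytes of mouse tumors, across 13 cell classes and 4 treatments. The genes were chosen as a list, with earlier results of these data known, and each symbol matched 1 of the 32285 genes in the deposited counts matrix. They are Nfkb1, Nfkb2, Rel, Rela and Relb, which encode the 5 subunits, Map3k14, Traf2, Traf3 and Birc3, which encode the kinase NIK and the complex that degrades it, and Nfkbia, which encodes the inhibitor IκBα.

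Subcutaneous tumors were grown in male C57BL/6 mice from the KPC line, which derives from a pancreatic tumor of the mouse. The control group had no treatment, and the others received the STING agonist ADU-S100 once into the tumor, an agonistic antibody to the lymphotoxin-β receptor (LTbR agonist) repeatedly by intraperitoneal injection, or both (combination). Tumors were taken days after the last antibody dose, and longer still after the STING agonist injection. Tumors of a group were pooled, digested with enzymes at body temperature, and sorted for live CD45+ cells, so that each of the 4 groups is 1 library. A pool gives no spread between animals, and which of the study's independent experiments these libraries come from is not stated.

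NF-κB proteins are dimers held inactive in the cytoplasm. In the canonical route, signals from receptors for TNF or microbial products lead to loss of IκBα and release of dimers that contain RELA, REL and the Nfkb1 product p50. In the non-canonical route, receptors such as LTβR and CD40 recruit TRAF3, TRAF2 and the ubiquitin ligases of the BIRC2 and BIRC3 family, which spares NIK from degradation, and NIK then drives processing of the Nfkb2 product p100 to p52, the partner of RELB. Much of this control acts on proteins, which RNA counts do not show, while Nfkbia, Nfkb1, Nfkb2, Relb, Rel and Birc3 are also known transcriptional targets of the pathway.

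Cells were placed in classes by detecting several marker genes of a type, none of them a member, and each class carries the name of its markers only. The 13 classes held 17462 of 23011 cells. Counts of unique molecular identifiers (UMIs) were summed per class and library and are given as CPM, the usual scaling of counts to a common total within that class and library. Differences are log2 ratios of CPM + 10, which understate the change of low values, with 95% intervals that cover counting error only. No test was run and no p-value is given, since every group is a single library. Agonist effects were read in the pairs that share no library, namely LTbR agonist against untreated and combination against STING agonist. Levels were compared for 1 gene at a time, since UMIs counted at the 5′ end are not normalised between genes.

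The libraries held 32529174 to 60770280 UMIs, and 3748 to 7147 cells each were kept, with medians of 5750 to 7094 UMIs per cell. The STING agonist library was the smallest, and 284 barcode sequences occurred in more than 1 library among 24839 barcodes. Ptprc, the gene for CD45, lay at 1053 to 1139.5 CPM over all cells. Summed markers of tumor cells lay at 6.69 to 8.58 CPM and those of fibroblasts at 2.30 to 4.11 CPM, and none of the 4 markers of either list was at 0. Among genes outside the gates, Il2ra lay at 1200 to 1731 CPM in the regulatory T class against 156 to 279 CPM in the CD4 T class, and Csf1r at 530 to 708 CPM in the macrophage class against 4.91 to 28.4 CPM in the CD8 T class. Macrophage C1q transcripts in the CD8 T class, which should lack them, stood at 0.405% to 1.18% of their level over all cells. In 10 classes every library had at least 50 cells. The B class had only 13 cells in the STING agonist library, the cDC1 class 24 to 83 cells and the pDC class 29 to 90 cells per library, and these 3 classes are left out of every count over 10 classes. Counts over 13 classes include them. Summed macrophage markers in the cDC1 class were 2068, 3173, 2984 and 5252 CPM in the untreated, STING agonist, LTbR agonist and combination libraries. Its own summed markers were 2015, 1602, 2085 and 1329 CPM in the same order. The class is thus not purely cDC1 cells by these markers, and their part in the members' values was not tested.

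Of the 10 members, 7 were highest in the mature DC class, which stands for dendritic cells with the migratory program of Ccr7 and Fscn1. Relb, the partner of p52, showed the widest gap between classes, at 498 to 724 CPM over the 4 libraries in the mature DC class against 96.8 to 121 CPM in the regulatory T class, the next in order, a ratio of the means of 5.95. Birc3 and Nfkbia were highest in the neutrophil class, and Traf2 in the regulatory T class. For 7 members the lowest library of the top class lay above the highest library of the next class, and below the top class the order was mostly unresolved: ranges overlapped between neighbors in 100 of 120 places. The gates of the mature DC class include Ccl22, a known NF-κB target, and its part in this order was not tested. The shares of all genes highest in the mature DC class, or with a top class apart from the next, were not computed. Neither count of members can thus be read as particular to them.

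**Figure D1:**
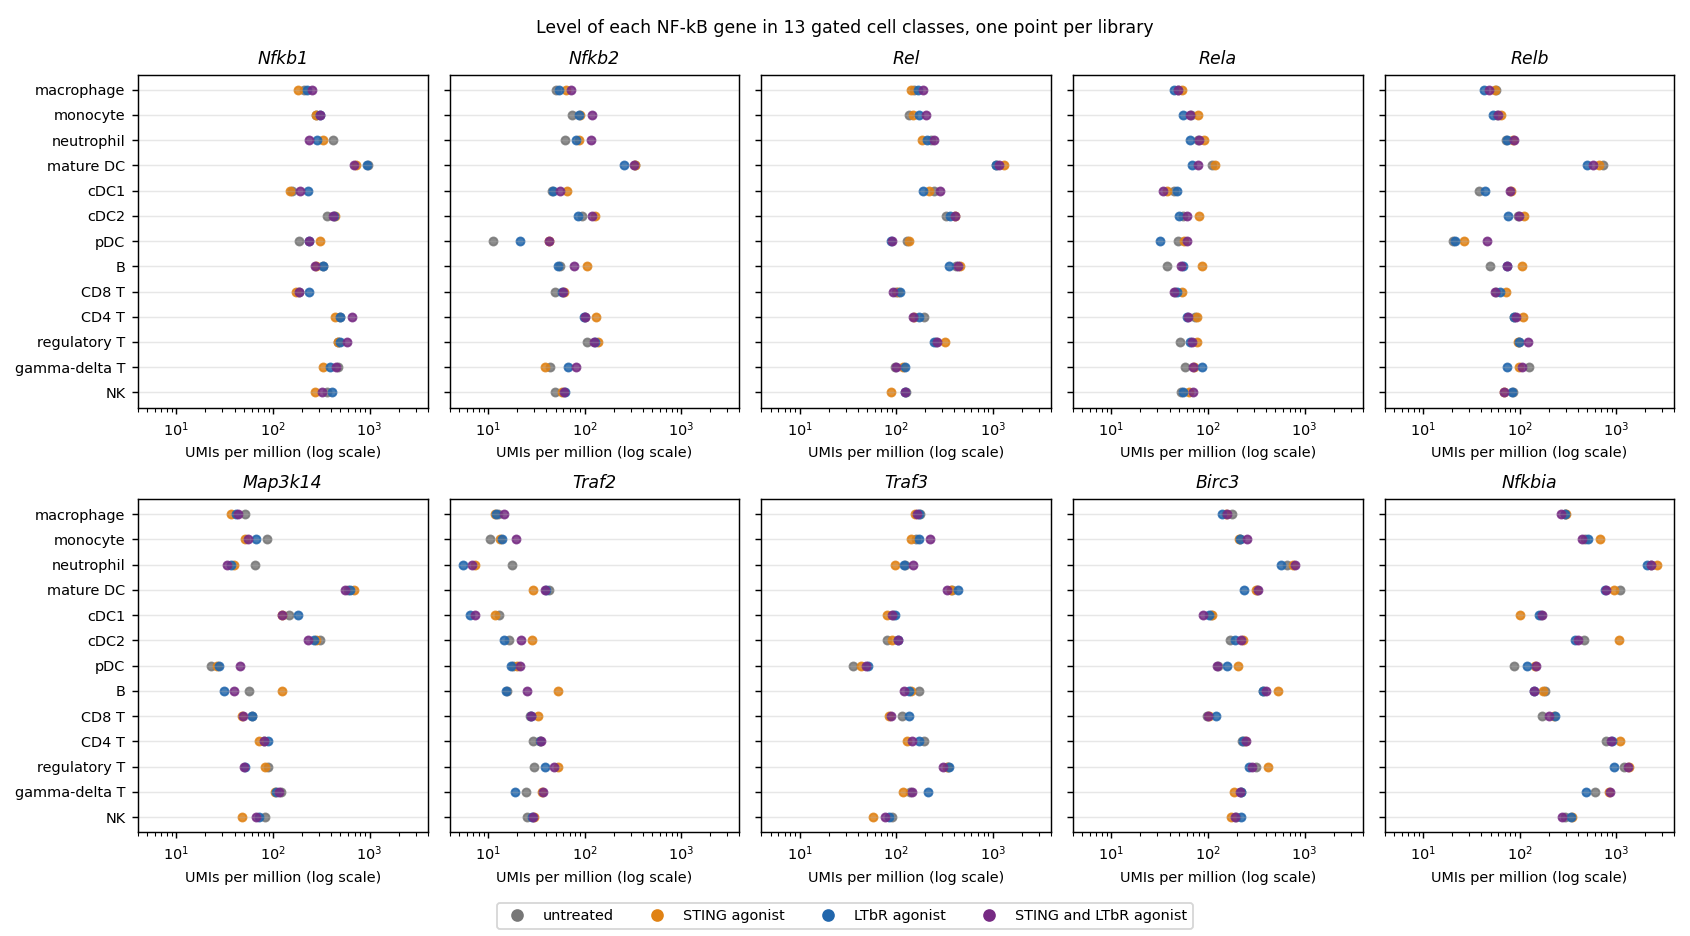
Level of each member in CPM (log scale) in 13 cell classes, with 1 point for each of the 4 libraries. The mature DC points stand to the right for Nfkb1, Nfkb2, Rel, Relb and Map3k14, and the neutrophil points for Birc3 and Nfkbia, whereas colors within a class mostly lie close together.

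Ltbr, the gene of the receptor that the antibody engages, lay at 65.2 to 76.1 CPM in the monocyte class, 48.8 to 61.4 CPM in the macrophage class and 39.6 to 53.5 CPM in the cDC2 class. In the mature DC class, where most members peaked, it lay lower, at 21.0 to 32.9 CPM. It lay at 0.670 to 3.22 CPM in the CD8 T class, or 1.65% to 11.3% of the level over all cells in the same library, at 6.56 to 23.1 CPM in the regulatory T class and at 0 to 15.5 CPM in the B class. The part of free RNA in so few UMIs was not tested, and LTβR protein was not measured here.

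The promoters of several members hold letters that NF-κB dimers are known to bind. The 3 shown, of Rel, Nfkbia and Traf3, are those with a match upstream of the start and outside the exons of the gene. Sequences were taken from the RefSeq promoter table of build GRCm38.p6, from 250 bases before to 50 bases after each start. It held 10 promoters for 8 members, and Nfkb1 and Relb were not among them. The motifs GGGNNTTTCC and GGGNNTTCCC, which overlap in part, were searched on both strands and occurred in 7 of these 10 promoters, of 5 genes, against 3.24% of 32851 promoters in the table. Matches upstream of the start are in capitals, written 5′ to 3′ on the strand of the gene, and the Rel and Nfkbia matches read as the motif on the opposite strand.
Rel, chr11:23771031-23771081, minus strand: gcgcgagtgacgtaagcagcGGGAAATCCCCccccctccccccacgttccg
Nfkbia, chr12:55492648-55492696, minus strand: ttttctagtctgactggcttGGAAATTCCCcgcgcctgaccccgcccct
Traf3, chr12:111166340-111166369, plus strand: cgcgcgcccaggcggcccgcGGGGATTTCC
The capitals lie 82 to 92 bases upstream of the start in Rel, 20 to 29 in Nfkbia and 1 to 10 in Traf3. All 3 windows lie outside the exons of their gene in the GENCODE annotation. The other matches were in Nfkb2, on chromosome 19, and 32 bases downstream of the Traf2 start on chromosome 2. Nfkb2 had several starts with a match, and each is counted as a separate promoter above. A match describes the letters and is not evidence of binding here.

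The main question was whether the members differed with the LTbR agonist in the same direction with and without the STING agonist. Of 100 combinations of a member and a counted class, 89 had at least 200 UMIs over the 4 libraries. Only 2 of the 89 (2.25%) were at least 0.3 higher in both pairs, Rel in monocytes and Nfkb2 in neutrophils, and 3 (3.37%) were at least 0.3 lower in both, Rela in mature DCs, Map3k14 in regulatory T cells and Nfkb1 in neutrophils. Over all genes the same limits were passed by 2.98% of 49417 gene and class combinations upward and by 3.01% downward, so the members' shares were close to the background. The median log2 ratio over the 89 values was 0.00 for LTbR agonist against untreated and -0.02 for combination against STING agonist. Single values ran from -0.70 to 0.58 in the first pair and from -1.38 to 0.60 in the second, and 47 of 89 stayed within 0.3 in both.

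The 2 libraries with the LTbR agonist lay above both others for 14 of 89 values (15.7%) and below them for 15 (16.9%), against 20.7% and 20.6% of all gene and class combinations. Over all cells, the log2 ratio in the 2 pairs was 0.16 and 0.26 for Nfkb1, -0.27 and -0.15 for Relb, and -0.06 and -0.19 for Rela. Levels over all cells depend on how many cells of each class a library holds. With the same class shares in every library these values were 0.12 and 0.24, -0.20 and -0.16, and -0.10 and -0.19. Others changed more, Nfkbia from 0.21 to 0.0012 in the first pair and Rel from 0.28 to 0.15 in the second.

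**Figure D2:**
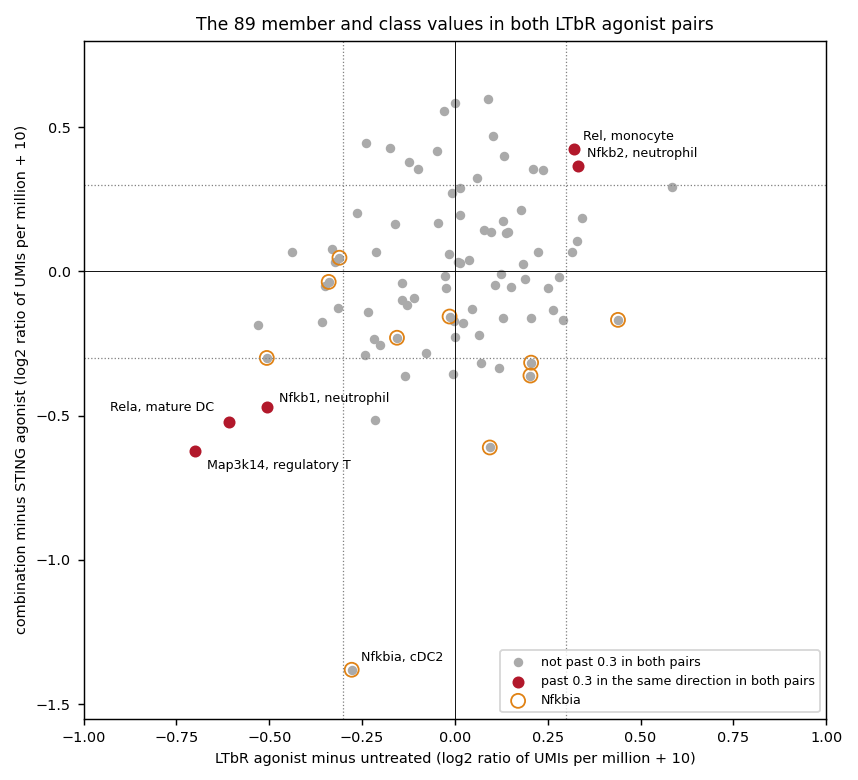
The 89 values of a member in a counted class, with the log2 ratio of CPM + 10 for LTbR agonist minus untreated on the x axis and for combination minus STING agonist on the y axis (dotted lines, limits of 0.3). The 5 points named above lie past the limit in the same direction in both pairs, and the 10 Nfkbia values, ringed, spread from -1.38 to 0.05 on the y axis.

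Rel in the monocyte class had the most UMIs of the values past the limit, which it passed in 4 of 8 alternative settings. Rel encodes c-REL, a subunit used by activated myeloid cells and lymphocytes. Its level was 135 CPM in the untreated library (95% interval 127 to 143, 1080 UMIs), 148 CPM with the STING agonist (136 to 159), 171 CPM with the LTbR agonist (162 to 180) and 202 CPM with the combination (190 to 214). Both libraries with the LTbR agonist lay above both others, and no interval of one kind touched an interval of the other. The log2 ratio was 0.32 (0.21 to 0.43) against untreated and 0.43 (0.29 to 0.56) for the combination against the STING agonist. With the median of all genes set to 0 the ratios were 0.29 and 0.37, with a stricter gate 0.27 and 0.49, and with cells thinned to 1000 UMIs 0.072 and 0.15. In monocytes 3.30% of 7663 genes were at least 0.3 higher in both pairs. In macrophages, the class next to it by lineage, Rel was 0.13 (0.06 to 0.20) and 0.40 (0.30 to 0.50) higher, and in CD8 T cells it was 0.13 (-0.01 to 0.27) and -0.16 (-0.32 to -0.01) in the 2 pairs.

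By class, Rel lay at 1080.3 to 1317 CPM in mature DCs, 353 to 456 CPM in the B class and 327 to 407 CPM in the cDC2 class. The cDC2 range stood apart from the regulatory T class below it, at 245 to 319.9 CPM. CD8 T cells were lowest, at 92.9 to 109 CPM.

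In neutrophils, Nfkb1 was lower and Nfkb2 higher in both pairs, at small counts. Nfkb1, the precursor of p50, was 415 CPM in untreated neutrophils (364 to 472), 332 CPM with the STING agonist (294 to 374), 289 CPM with the LTbR agonist (258 to 323) and 237 CPM with the combination (165 to 329, 35 UMIs). Its log2 ratio was -0.51 (-0.74 to -0.27) in the first pair and -0.47 (-0.96 to 0.02) in the second. Nfkb2, the precursor of p52, had 62.1 CPM in untreated neutrophils (43.2 to 86.3), 87.0 CPM with the STING agonist (67.9 to 110), 80.6 CPM with the LTbR agonist (64.6 to 99.5) and 115 CPM with the combination (67.0 to 184, 17 UMIs).
The Nfkb2 levels of the 2 kinds of library overlapped, and both of its log2 ratios, 0.33 (-0.16 to 0.82) and 0.37 (-0.33 to 1.07), had intervals that include 0. The combination library held 59 neutrophils. Summed macrophage markers in the neutrophil class were 372, 143, 240.03 and 102 CPM in the untreated, STING agonist, LTbR agonist and combination libraries, and summed T cell markers 79.8, 44.1, 30.6 and 54.1 CPM, with none at 0. Il2ra was 147 CPM in untreated neutrophils and at most 3.68 CPM in the others. The part of these in the values of Nfkb1 and Nfkb2 was not tested. In this class 8.99% of 1857 genes were at least 0.3 higher in both pairs and 3.93% at least 0.3 lower.

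Rela in mature DCs lay lower in both libraries with the LTbR agonist. Rela encodes p65, the main transactivating subunit of the canonical route. Mature DCs had 110.0 CPM without treatment (94.6 to 127), 118 CPM with the STING agonist (91.5 to 149), 68.8 CPM with the LTbR agonist (53.5 to 87.0) and 79.0 CPM with the combination (58.5 to 104). The levels of the 2 kinds of library did not overlap, although the intervals of the combination and the STING agonist did. The log2 ratios were -0.61 (-0.96 to -0.25) and -0.52, with an interval below 0 in each. Nfkbia, itself a target of RELA, was 1082 CPM, 955 CPM, 758 CPM and 774 CPM in untreated, STING agonist, LTbR agonist and combination mature DCs, with log2 ratios of -0.51 and -0.30, the second just short of the limit. In this class 8.24% of 2973 genes were at least 0.3 lower in both pairs.

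Relb, Birc3 and Nfkb2 in mature DCs were lower in the first pair and closer to 0 in the second. Relb was 724 CPM untreated, 659 CPM with the STING agonist, 498 CPM with the LTbR agonist and 577 CPM with the combination. Its log2 ratio was -0.53 (-0.68 to -0.38) and -0.19 (-0.39 to 0.02). Birc3 was -0.44 (-0.65 to -0.23) and 0.07 (-0.21 to 0.35), and Nfkb2 -0.35 (-0.56 to -0.14) and -0.05 (-0.33 to 0.23). Map3k14 went from 0.07 to -0.32 and Traf3 from 0.21 to -0.16 between the pairs. Over the 9 members with enough UMIs the median was -0.35 and -0.17, beside -0.02 and -0.08 over all genes of the class.
Summed genes of the dissociation response, which are induced in cells during enzymatic digestion, stood at 4528 and 4566 CPM in untreated and STING agonist mature DCs and at 2512 and 4131 CPM in those with the LTbR agonist and the combination. Summed macrophage markers in the class were 320.4, 607, 99.7 and 709.5 CPM in the same order, with none of 8 at 0. The part of either in the members' values was not tested.

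Map3k14 in regulatory T cells had the lowest log2 ratios of the values past the limit in both pairs. The gene encodes NIK, whose protein is kept low by TRAF3, TRAF2 and BIRC2 or BIRC3. Regulatory T cells had 89.2 CPM untreated (67.0 to 116), 82.1 CPM with the STING agonist (58.4 to 112), 51.1 CPM with the LTbR agonist (39.8 to 64.5) and 49.8 CPM with the combination (35.3 to 68.4). The levels did not overlap, on 38 to 70 UMIs per library, and 10 cells carried 64.8% of them in the untreated and 69.2% in the STING agonist library. The log2 ratios were -0.70 (-1.15 to -0.25) and -0.62 (-1.18 to -0.07), and 4.43% of 3025 genes of the class were at least 0.3 lower in both pairs. With cells thinned to 1000 UMIs the first ratio turned to 0.037, and the second was -0.89. The class rests on a Foxp3 UMI, and Ltbr itself lay at 6.56 to 23.1 CPM there. Gzma, a cytotoxic granule gene outside the gates, was 1288 CPM in regulatory T cells of the STING agonist library. It was 8.26 CPM untreated, 5.84 CPM with the LTbR agonist and 43.3 CPM with the combination. Summed mature DC markers in the class were 152, 135, 83.9 and 106 CPM in the untreated, STING agonist, LTbR agonist and combination libraries. Summed cDC2 markers were 307, 198, 120 and 197 CPM in the same order. The part of any of these in the Map3k14 values was not tested.

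**Figure D3:**
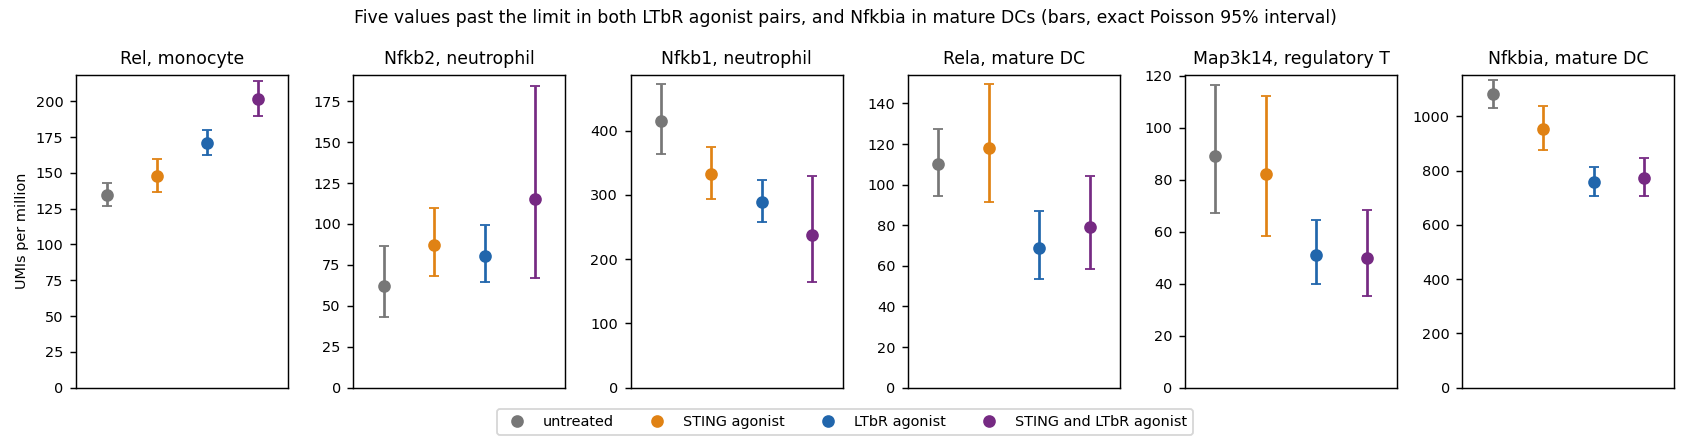
Levels in CPM of the 5 values past 0.3 in both LTbR agonist pairs and of Nfkbia in mature DCs, with 1 point per library and exact Poisson 95% intervals as bars. In Rel, Nfkb1, Rela, Map3k14 and Nfkbia the 2 libraries with the LTbR agonist lie on one side of the other 2, whereas Nfkb2 in neutrophils rests on 17 to 87 UMIs and its bars overlap.

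By class, Map3k14 was 553 to 692 CPM in mature DCs, 230.2 to 309 CPM in cDC2 cells and 123 to 180.3 CPM in the cDC1 class. Each of these ranges stood apart from the next, although the cDC1 class also held macrophage markers, as given above. Monocytes had 86.2 CPM untreated, 51.9 CPM with the STING agonist, 66.6 CPM with the LTbR agonist and 55.3 CPM with the combination. The untreated library was thus the highest, and the STING agonist library lay -0.64 (-0.82 to -0.45) from it, but the combination lay only -0.23 (-0.40 to -0.06) from the LTbR agonist. In macrophages the 2 LTbR agonist pairs had opposite signs, at -0.26 (-0.39 to -0.14) and 0.20 (0.03 to 0.37).

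Of the adaptors that degrade NIK, Traf3 had its largest log2 ratio of the LTbR agonist pairs in monocytes. It had 160.1 CPM untreated, 143 CPM with the STING agonist, 171 CPM with the LTbR agonist and 221 CPM with the combination (209 to 235). The combination stood apart, so that the log2 ratio was 0.60 (0.47 to 0.73) in the second pair and 0.088 (-0.01 to 0.19) in the first. In gamma-delta T cells, on 241 UMIs, Traf3 was 0.58 (0.10 to 1.07) in the first pair and 0.29 (-0.22 to 0.80) in the second. There both libraries with the LTbR agonist lay above both others. Traf3 in CD8 T cells lay at 115 and 136 CPM in the untreated and LTbR agonist libraries against 83.5 and 88.0 CPM in the STING agonist and combination libraries. Mature DCs (332 to 438 CPM) and regulatory T cells (303 to 352 CPM) were highest and overlapped, and the regulatory T range stood apart from the monocytes below it.

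Traf2 was counted sparsely in every class. It reached 29.7 to 52.6 CPM in regulatory T cells and 29.5 to 42.3 CPM in mature DCs, which overlapped, and only 5 classes had 200 UMIs. In monocytes it was 10.4 CPM untreated, 13.3 CPM with the STING agonist, 14.0 CPM with the LTbR agonist and 19.6 CPM with the combination. The log2 ratios were 0.24 (0.02 to 0.46) and 0.35 (0.07 to 0.63), the first below the limit.

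Birc3, a ubiquitin ligase that also protects from cell death, was highest in neutrophils at 565 to 792 CPM, in the B class at 367 to 526 CPM and in regulatory T cells at 268 to 415 CPM. No class passed the limit in both pairs. In macrophages it was 177 CPM untreated, 155 CPM with the STING agonist, 139.7 CPM with the LTbR agonist and 159 CPM with the combination, so that the first pair gave -0.32 (-0.40 to -0.25) and the second 0.03 (-0.07 to 0.13). In regulatory T cells the STING agonist library was highest, at 415 CPM against 312, 268 and 287 CPM in the untreated, LTbR agonist and combination libraries.

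The members' nearest relatives by class order were named for Relb and Nfkbia from the mean over libraries of log2(CPM + 10) in 13 classes. For Relb the 5 genes with the highest Pearson r were Nrde2 (0.94), Ssh1 (0.93), Vsig10 (0.93), Flvcr1 (0.93) and Zfc3h1 (0.92), all highest in mature DCs. For Nfkbia they were Stx11 (0.91), Sik3 (0.91), Gadd45b (0.90), Nfkbiz (0.88) and Sfmbt2 (0.88), all highest in neutrophils. Among the members, Nfkb2 and Relb were the most alike, at 0.91, and Map3k14 and Birc3 the least, at -0.01. These values describe 13 points that share libraries and depth.

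Nfkbia differed most in the STING agonist library of cDC2 cells. The gene encodes IκBα, and its RNA is a quick readout of canonical signaling. The cells were taken days after the STING agonist injection, so an early response to it was not measured here. In cDC2 cells Nfkbia was 459 CPM untreated (429.6 to 489.6), 1068 CPM with the STING agonist (996 to 1144), 377 CPM with the LTbR agonist (348 to 407) and 404 CPM with the combination (368 to 442). The STING agonist library lay far above the other 3, which gave log2 ratios of 1.20 (1.07 to 1.33) for STING agonist against untreated and -1.38 (-1.54 to -1.22) for combination against STING agonist. That library held 56 cDC2 cells, and 10 of them carried 60.9% of its 818 Nfkbia UMIs. Summed neutrophil markers in the cDC2 class were 39.1, 30.0, 24.0 and 23.6 CPM for untreated, STING agonist, LTbR agonist and combination, with 2 of 8 at 0, and their part in the Nfkbia values was not tested.
In monocytes the STING agonist library was also the highest, with 472 CPM untreated, 678 CPM with the STING agonist, 505 CPM with the LTbR agonist and 441 CPM with the combination. Across the 13 classes, Nfkbia was highest in the STING agonist library in 7, in the combination in 3, in the untreated library in 2 and in the LTbR agonist library in 1.

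The dissociation response was also high in the STING agonist library. Its 13 immediate-early and heat-shock genes, summed, were highest in the STING agonist library in 11 of 13 classes. In cDC2 cells they stood at 9790.1 CPM with the STING agonist and at 5572, 5163 and 5624 CPM in the untreated, LTbR agonist and combination libraries. In CD4 T cells the sum was 4628, 7324, 4856 and 5111 CPM, and Nfkbia 775, 1107, 895 and 887 CPM, in untreated, STING agonist, LTbR agonist and combination. The part of digestion and handling in Nfkbia was not tested.

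**Figure D4:**
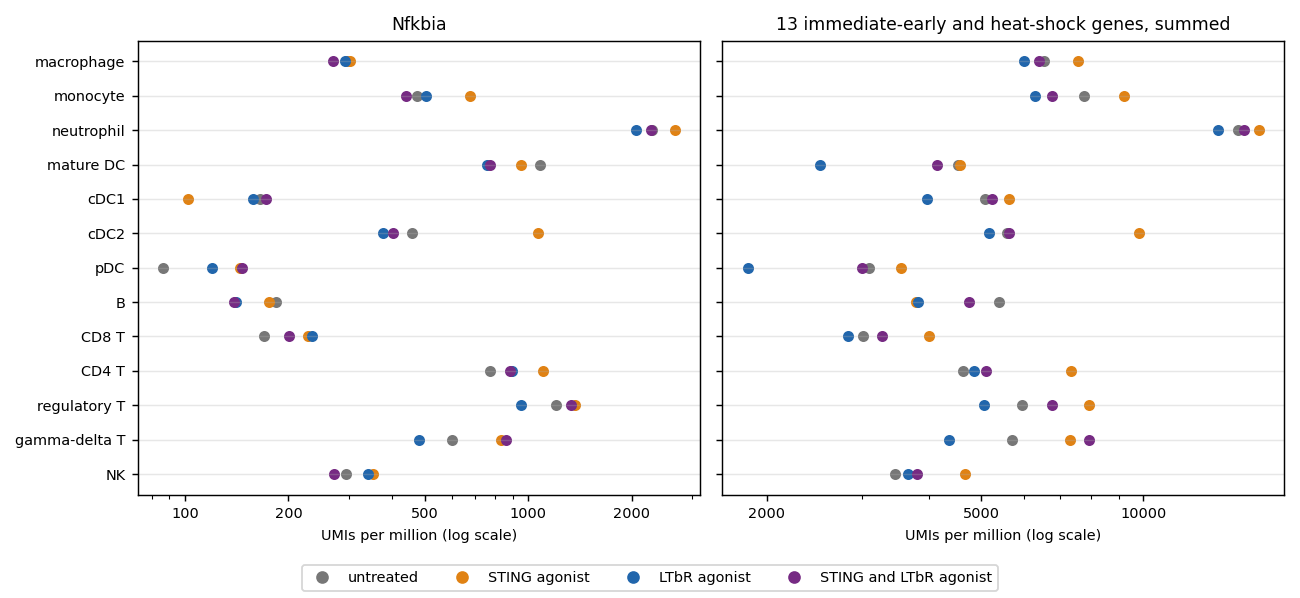
Nfkbia (left) and the sum of 13 immediate-early and heat-shock genes (right) in CPM (log scale) in 13 classes, with 1 point per library. In cDC2 and CD4 T cells the STING agonist library lies to the right in both panels, whereas in mature DCs it lies below the untreated library for Nfkbia, at 955 against 1082 CPM.

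The members were also counted in the pairs that differ by the STING agonist, which use the same 4 libraries and are not independent of the pairs above. Of 89 values, 4 (4.49%) were at least 0.3 higher with the STING agonist in both pairs, against 1.88% of all gene and class combinations. They were Nfkb2 in macrophages, neutrophils and cDC2 cells and Nfkbia in gamma-delta T cells. In these classes 0.795%, 3.66%, 2.36% and 11.8% of all genes were higher in this way. Nfkb2 in neutrophils gave 0.43 (-0.08 to 0.94) and 0.46 (-0.22 to 1.15), each interval on both sides of no change. Another 3 of the 89 values (3.37%) were at least 0.3 lower, against 2.00% of all combinations. They were Nfkb1 in mature DCs and NK cells and Traf3 in CD8 T cells, where 3.63%, 1.65% and 1.81% of all genes were lower. Macrophage Nfkb2 was 50.01 CPM untreated, 64.3 CPM with the STING agonist, 54.2 CPM with the LTbR agonist and 71.7 CPM with the combination. Both libraries with the STING agonist lay above both others, with log2 ratios of 0.31 (0.19 to 0.43) and 0.35 (0.21 to 0.48).
Nfkb1 in mature DCs was 959 and 943 CPM in the untreated and LTbR agonist libraries and 718 and 689 CPM in the STING agonist and combination libraries.

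Within a library, the UMIs of Nfkb2 per UMI of Nfkb1 compare the precursors of the non-canonical and canonical routes without scaling to depth. The ratio was higher with the STING agonist than without treatment in 13 of 13 classes (10 of the 10 with enough cells), and higher in the combination than with the LTbR agonist in 11 of 13 (8 of 10). The classes share the same libraries, so counts of classes are not repeated observations. The share of other gene pairs with such counts was not computed. In the B class the ratio rested on 6 and 16 UMIs with the STING agonist, and in the pDC class on 10 to 14 Nfkb2 UMIs per library. In macrophages it was 0.240 untreated, 0.353 with the STING agonist, 0.241 with the LTbR agonist and 0.280 with the combination. The CD4 T and regulatory T classes ran the other way in the second pair, at 0.199 against 0.151 and at 0.263 against 0.214 for LTbR agonist against combination. For the LTbR agonist the ratio was higher than untreated in 7 of 13 classes (6 of 10), and higher in the combination than with the STING agonist in 5 (4 of 10).
The UMIs of Relb per UMI of Rela separated mature DCs, at 5.59 to 7.31, from every other class. The highest single library of those was the cDC1 class of the combination at 2.36, a class that also held macrophage markers. The Relb per Rela ratio was higher with the LTbR agonist than untreated in 8 of 13 classes (5 of the 10 with enough cells). It was higher in the combination than with the STING agonist in 10 of 13 (7 of 10).

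**Figure D5:**
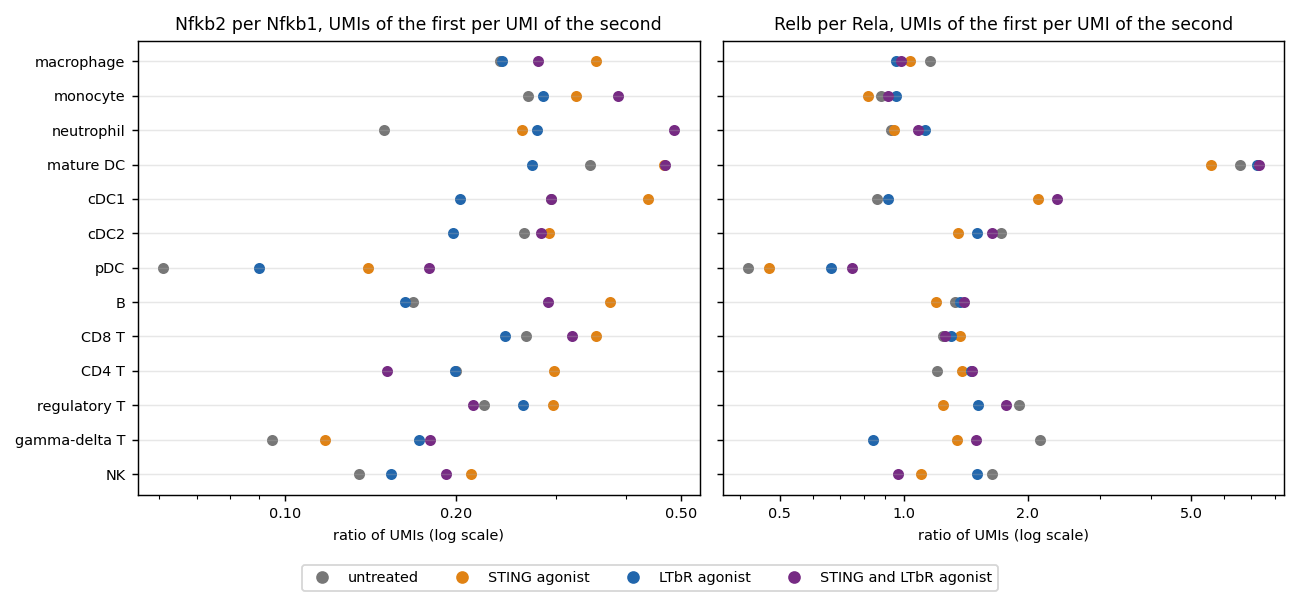
UMIs of Nfkb2 per UMI of Nfkb1 (left) and of Relb per UMI of Rela (right) on log scales in 13 classes, with 1 point per library. In the left panel the STING agonist point lies to the right of the untreated point in all 13 classes, and in the right panel the 4 mature DC points lie above 5.

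The other genes of the pathway gave 239 values of a gene in a counted class, from a list of 37 receptors, adaptors, kinases and inhibitors. Of these, 3 (1.26%) were at least 0.3 higher in both LTbR agonist pairs and 13 (5.44%) at least 0.3 lower, beside 2.98% and 3.01% over all genes. Traf1, an adaptor and NF-κB target, was higher in monocytes, at 67.9, 81.1, 105 and 119 CPM in the untreated, STING agonist, LTbR agonist and combination libraries. In neutrophils Traf1 was 53.2, 98.0, 162 and 189 CPM in this order. In cDC2 cells it was lower with the LTbR agonist, at 261, 341, 196 and 229 CPM.
Of the 13 lower values, 5 were in cDC2 cells and 4 in mature DCs, of 26 and 21 values, where 5.43% and 8.24% of all genes were lower. Bcl3, a nuclear IκB protein, was 126, 133, 64.8 and 88.7 CPM in mature DCs and 149.9, 218, 92.6 and 132 CPM in cDC2 cells. Cd40, another receptor of the non-canonical route, was 269.6, 246, 196 and 184 CPM in mature DCs. Median log2 ratios of the list were -0.18 and -0.23 in mature DCs and -0.16 and -0.27 in cDC2 cells, beside -0.02 and -0.08 and 0.03 and -0.03 over all genes of these classes.

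Known targets of NF-κB, a list of 24 genes that shares Traf1 and Tnfaip3 with the pathway list, gave 172 values. Of these, 13 (7.56%) were at least 0.3 higher in both pairs and 25 (14.5%) at least 0.3 lower, beside 2.98% and 3.01% over all genes. The higher values of Traf1 in monocytes and neutrophils count in both lists. Ccl17, a chemokine that draws CCR4+ T cells, showed the highest ratios of the target list. In cDC2 cells it was 33.1 CPM untreated, 20.9 CPM with the STING agonist, 339 CPM with the LTbR agonist and 400.5 CPM with the combination, with log2 ratios of 3.02 and 3.73. In mature DCs Ccl17 was 134, 208, 374 and 501 CPM in this order.
In monocytes Bcl2a1d and Bcl2a1b, survival genes of the BCL2 family whose copies are near identical and whose UMIs may be split between them, had log2 ratios of 0.94 and 0.93 and of 0.74 and 0.85. Lower values included Ccl4 in CD4 T cells (-1.76 and -1.46), Ptgs2 in mature DCs (-0.60 and -1.05) and Sod2 in monocytes (-0.43 and -0.43). The dissociation list itself gave 123 values, of which 5 (4.07%) were higher and 21 (17.1%) lower in both LTbR agonist pairs. In both STING agonist pairs 25 (20.3%) were higher and 2 (1.63%) lower, beside 1.88% and 2.00% over all genes in those pairs.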

How the data were processed

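Per the labels, the authors sorted CD45+ cells of 4 groups and ran 1 droplet library each, and per the submitters' processing notes counted UMIs with Cell Ranger 7.1.0 on mm10. The deposited counts are raw UMIs per gene and barcode. Barcodes with 300 to 5000 genes and at most 6% mitochondrial UMIs were kept, the limits that the study gives. Classes required UMIs of at least 3 markers of a list (4 for neutrophil, mature DC and pDC), and T subsets a Cd4, Cd8a or Cd8b1, Foxp3 or 2 gamma-delta markers. These thresholds and the 50-cell minimum were set after the cells were seen. Cells that met more than 1 lineage, both the mature DC and cDC1 gates, or macrophage and cDC2 equally were left out (657 together). Macrophage, mature DC and cDC1 counted as 1 lineage here. A cell that met the macrophage gate and the mature DC or cDC1 gate was thus kept as a dendritic cell. One that met macrophage and cDC2 went to the list with more markers detected. No doublet caller was run. Counts were summed per class and library with numpy 2.4.6, and exact Poisson intervals came from scipy 1.17.1. A value was past the limit at 0.3 in the same direction in both pairs, with at least 200 UMIs over 4 libraries. Members, gene lists and limits were chosen with earlier results of these data known. The 10 members are named throughout, and of the lists at most the 4 with the largest smaller ratio per class. Intervals and depths cover counting error only.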

Additional observations from a re-analysis of the deposited data

Results flagged for a closer look

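In 5 combinations of a member and a class the LTbR agonist pairs differed in sign, with each counting interval on its own side of 0, although the difference between the pairs was not tested, since each group had 1 library. Map3k14 in macrophages was -0.26 on the log2 scale for LTbR agonist against untreated and 0.20 for combination against STING agonist. The other 4 were Nfkbia, at 0.094 and -0.61 in monocytes, 0.44 and -0.17 in CD8 T cells, 0.21 and -0.32 in CD4 T cells, and 0.20 and -0.36 in NK cells. In the same 4 classes the summed dissociation genes were higher in the STING agonist library than in the other 3, and their part in the Nfkbia values was not tested.

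Barcodes outside the limits on genes and mitochondrial share entered no comparison. Among them Nfkb1 was 329 CPM in the combination library and 276 CPM in the untreated library, with counting intervals that lie apart. Among these barcodes no other member had a treated library above the untreated one with intervals apart. Treated libraries also lay lower for some members. Map3k14 was 92.4 CPM untreated and 62.2 CPM with the combination, and Rel 186 CPM untreated and 125 CPM with the STING agonist. Nfkb1 itself was 215 CPM with the STING agonist.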

How the results depend on the processing

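No paired analysis was possible because no result comes from a test and the labels give no replicate numbers. The 2 values higher in both LTbR agonist pairs became 4 with a pseudocount of 1, 0 with a pseudocount of 50, 1 with the median of all genes set to 0, 1 after thinning cells to 1000 UMIs, and 0 with a limit of 0.5. The 3 lower values became 5 with means over cells, 7 after thinning and 5 when all 13 classes were counted, an alternative chosen after seeing the data. The other counts stayed within 1.5 times. Nfkb1 in neutrophils stayed past the limit in both pairs in 8 of 8 alternatives, Rela in mature DCs and Map3k14 in regulatory T cells in 7, Nfkb2 in neutrophils in 5 and Rel in monocytes in 4, where both of its ratios stayed above 0. Thinning turned the LTbR agonist against untreated ratio of Nfkb2 in neutrophils to -0.13 and of Map3k14 in regulatory T cells to 0.037, on few UMIs. It draws 1000 UMIs from each cell and leaves out cells with fewer. These were 179, 92, 274 and 176 cells of the untreated, STING agonist, LTbR agonist and combination libraries. Every cell left thus has the same weight. Thinning moved 46 of 84 ratios outside their counting interval and reversed 2. That interval is the one at full depth and leaves out the larger counting error of the thinned counts. The count of 46 can thus not separate depth from counting error. With the same class shares in every library, 11 of 20 ratios over all cells moved outside their counting interval.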
